A study of Bos taurus with 5 samples.

Results

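The transcript assembly of these cattle leukocyte libraries held 31898 loci, and 6056 of them carried no Ensembl transcript. The 1651 loci described here are the longer and better covered of these. Each had no Ensembl ID on any of its transcripts, lay on a placed chromosome other than the mitochondrial one, had a span of at least 300 nt and fewer than 8 transcripts, and reached a mean of at least 1 FPKM (a count of sequenced fragments adjusted for transcript length and for the size of the library) over the 5 libraries. They made up 11.9 percent of the 13871 loci of the assembly that passed the same limit on the mean. Of the 5159 loci that met the other conditions, 3508 stayed under that limit. At the limits, the lowest means inside were 1.0001, 1.0003 and 1.001 FPKM and the highest outside was 0.99997 FPKM. The shortest span was 300 nt, the longest of the short loci left out was 299 nt, and 19 loci with 8 to 14 transcripts were left out.

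Peripheral blood leukocytes from 5 populations were sequenced, with 1 library for each. N and H are labelled as purebreds, and what the letters stand for is not spelled out. The crosses combined Holstein cattle, a dairy breed, with cattle native to Iran. Animals of 50CSN and 50CSH were 50 percent of each breed, the sire being native in 50CSN and Holstein in 50CSH, and the dam of the other breed. Those of 75C were 75 percent Holstein and 25 percent native. How many animals stand behind a library is not stated, so a difference between 2 populations has no replicate check. The number of reads is unknown. Judged by low values of single-transcript loci, the libraries ranged from 0.94 (75C) to 1.2 (N) times the depth of H. The markers of leukocyte classes could not be read, because none of the 31460 Ensembl transcript IDs matched the gene table used here. The mix of cell types in each library was therefore not measured, and fewer cells of a type cannot be told apart from less RNA per cell.

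A locus that an assembler builds outside the annotation can be a long noncoding RNA, a retained copy of a messenger RNA reinserted into the genome, an exon or an end of a known gene that the annotation lacks, or a gene segment of an antigen receptor. Long noncoding RNAs are in general less abundant and more restricted to particular cells than messenger RNAs. T and B cells join variable segments of their receptor genes anew in each cell, so the segments in use differ from clone to clone. The deposited tables do not say which of these kinds a locus belongs to, and the loci are described below by chromosome, position and the name the assembly gave them.

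The unannotated loci were mostly weakly expressed, with a few very high exceptions. The median of their means was 2.47 FPKM, and the middle 50 percent lay between 1.44 and 5.74 FPKM. Loci with an Ensembl transcript had a median of 13.0 FPKM, and the 165 unannotated loci under 300 nt had a median of 34.9 FPKM. A mean of at least 10 FPKM was reached by 245 of the 1651, which is 14.8 percent, against 58.1 percent of the annotated loci. At least 100 FPKM was reached by 38. The median over the loci was alike in every library, at 2.53 FPKM (N), 2.52 (H), 2.495 (75C), 2.2998 (50CSN) and 2.29 (50CSH). Most of the loci, 1251, had a single transcript, which was the case for 17.6 percent of the annotated loci.

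**Figure D1:**
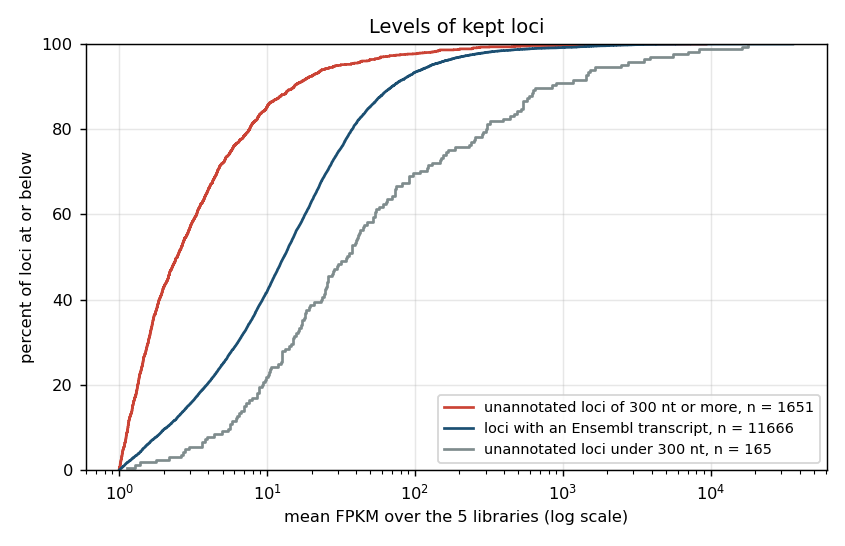
Share of kept loci (vertical axis, percent) at or below a mean FPKM over the 5 libraries (horizontal axis, log scale), for the 1651 unannotated loci of 300 nt or more, the 11666 loci with an Ensembl transcript and the 165 unannotated loci under 300 nt. The curve of the longer unannotated loci lies to the left, with a median of 2.47 FPKM.

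Their share of all expression differed between the libraries mainly through 1 locus. The 1651 loci took up 4.12 percent (N) of all FPKM, 4.64 (H), 4.59 (75C), 5.72 (50CSN) and 3.31 (50CSH). XLOC_009963 (chr18:61508086-61564471) was at 3865 FPKM (N), 10473 (H), 12799.5 (75C) and 19859 (50CSN) and was listed at 0 in the remaining library, 50CSH. Without it the shares were 3.60 percent (N), 3.22 (H), 3.07 (75C), 3.39 (50CSN) and 3.31 (50CSH). An exact 0 in such tables can be a failed estimate of the model that divides reads among transcripts, so no fold is given against it. Its span also held the annotated locus of ENSBTAT00000021266, at 1.18 FPKM in N and 3.04 in H, and a further unannotated locus at up to 1.96 FPKM, neither of which was raised in 50CSH.

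The position of the loci fell into 3 classes. A span of their own was held by 1164, or 70.5 percent, with a median length of 1742.5 nt. Another 322 shared a span with at least 1 annotated locus, and these spans had a median length of 66889.5 nt, so the place of the transcript inside the span is not known and positions given here are those of the span. The remaining 165 shared a span with unannotated loci only. The median distance to the nearest annotated locus was 3839 nt, 349 loci lay within 1000 nt of one without touching it, and 252 lay more than 50000 nt away. Every placed chromosome carried some of the loci, from 15 on chromosome 20 to 109 on chromosome 18 and 108 on chromosome 5. On the chromosomes that carry clusters of antigen receptor or other immune receptor genes in cattle, which are 4, 5, 10, 11, 17, 18, 21 and 23, the unannotated loci were 13.4 percent of the kept loci, and on the other placed chromosomes 12.4 percent.

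Among the most abundant loci were several that were compact and stood alone. XLOC_007089 (chr15:19215452-19215958) had 2167 FPKM (N), 2113 (H), 2952 (75C), 2923 (50CSN) and 2719 (50CSH). XLOC_008716 (chr17:41908770-41909114) had 1163 FPKM (N), 1135 (H), 1795 (75C), 2245 (50CSN) and 2104 (50CSH). XLOC_002420 (chr10:69119076-69120037) had 1024 FPKM (N), 1037 (H), 1354 (75C), 1517 (50CSN) and 1469 (50CSH). In all 3 the crossbred libraries lay above both purebreds without overlap. This was also the case for 21 percent of all kept loci and 29.0 percent of annotated loci at 20 FPKM or more. XLOC_010128 (chr18:48439928-48440290) followed the same order of groups and had 703 FPKM (N), 834 (H), 1031 (75C), 1536 (50CSN) and 1435 (50CSH). So did XLOC_003304 (chr11:65118646-65119885), at 452 FPKM in N and 487 in H against crossbred values of 597 (75C), 715 (50CSN) and 741 (50CSH). XLOC_012180 (chr2:129358797-129359671) had 317 FPKM in N and 293 in H against crossbred values of 423 (75C), 678 (50CSN) and 643 (50CSH). These loci lay between 4129 nt and 50043 nt from the nearest annotated locus.

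Other abundant loci followed other patterns. XLOC_003225 (chr11:45366170-45366499) was at 505 FPKM (N), 389 (H) and 526 (75C) but at 70.04 (50CSN) and 103 (50CSH), so both 50 percent crosses were lower than the other 3 libraries. XLOC_018303 (chr28:24718276-24739642) was highest in N at 5143 FPKM and in 50CSN at 4216 FPKM, and stood at 2096 FPKM in H, 1388 in 75C and 1934 in 50CSH. XLOC_018268 (chr28:12490429-12492050) was at 588 FPKM in both H and 75C, 468 in 50CSN, 367 in 50CSH and 266 in N. XLOC_001104 (chr1:94818312-94818890) was nearly even and had 530.2 FPKM (N), 568 (H), 475 (75C), 502 (50CSN) and 488 (50CSH). On chromosome 25 a pair of loci shared the span from 3060811 to 3075626 and did not move together. XLOC_016526 had 739 FPKM (N), 332 (H), 783 (75C), 449 (50CSN) and 577 (50CSH). XLOC_017223 had 28.7 FPKM (N), 94.1 (H), 121 (75C), 19.4 (50CSN) and 181 (50CSH).

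**Figure D2:**
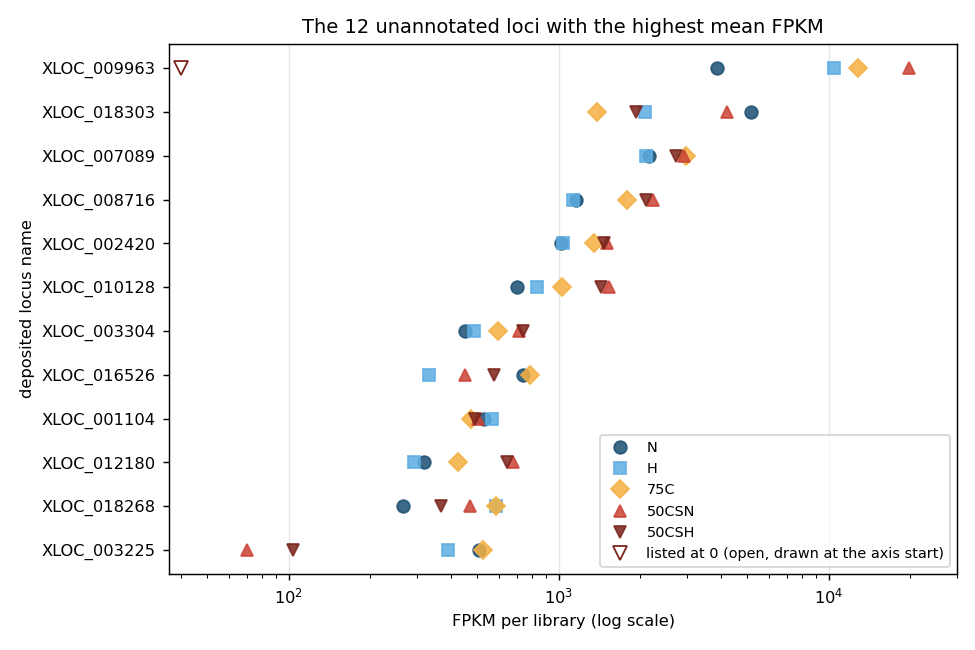
FPKM in each of the 5 libraries (horizontal axis, log scale; 1 symbol per library) for the 12 unannotated loci with the highest mean, named as in the deposited tables. XLOC_009963 spans 3865 to 19859 FPKM and is listed at 0 in 50CSH, drawn as an open symbol at the start of the axis.

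Likeness to annotated loci was measured for the loci with the highest means as the root mean square difference of the log2(FPKM + 1) profiles over the 5 libraries, each centred on its own mean. For XLOC_007089 the nearest was the locus of ENSBTAT00000035359 on chromosome 12 at a distance of 0.02, with 14.2 FPKM in N and 14.1 in H against crossbred values of 20.7 (75C), 19.9 (50CSN) and 18.1 (50CSH). For XLOC_018303 it was the locus of ENSBTAT00000015026 on chromosome 22 at 0.11. For XLOC_009963 no likeness is given, because its listed 0 in 50CSH sets every such distance.

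The purebred libraries were set against each other for the difference between the parental populations. Between H and N, 99 of the 1651 unannotated loci were at least 2-fold apart on the log2(FPKM + 1) scale, 45 higher and 54 lower in H, or 5.996 percent against 3.32 percent of all kept loci. XLOC_025392 (chr7:15788602-15803571) had the highest value in H relative to N among loci above 0 in every library. It had 3.73 FPKM (N), 78.5 (H), 27.3 (75C), 20.999 (50CSN) and 18.6 (50CSH), a log2 difference of 4.07 between H and N, with all 3 crosses between the purebreds. XLOC_020758 (chr3:8585614-8597287) came next, with 0.979 FPKM (N) and 7.56 (H), beside 1.89 (75C), 6.06 (50CSN) and 3.19 (50CSH). At both loci the crosses lay between the purebreds, but both were picked for a wide gap between H and N. No pattern of the crosses is drawn from them. XLOC_007074 (chr15:5503345-5503660) was lowest in H, at 2.98 FPKM against 35.05 FPKM (N), 17.4 (75C), 20.8 (50CSN) and 18.2 (50CSH). XLOC_004191 (chr12:59458719-59459064) was at 8.17 FPKM (H) and 65.3 (N), and the crosses lay at 23.9 (75C), 58.0 (50CSN) and 37.1 (50CSH). XLOC_019430 (chr3:14822783-14851133) had 16.2 FPKM (N) and 16.5 (50CSH), with 10.1 (50CSN), 3.55 (75C) and 1.80 (H). These 3 were picked for being low in H, and the crosses took different orders over the 6 loci lowest in H relative to N. In XLOC_005362 (chr13:64617270-64618597), for example, 75C at 4.19 FPKM lay between 50CSN at 3.50 and 50CSH at 5.04, with N at 9.18 and H at 0.856.

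The reciprocal crosses share breed proportions and differ in which breed the sire came from. Between 50CSH and 50CSN, 50 unannotated loci had 2-fold or higher values in 50CSH and 58 in 50CSN, or 6.54 percent against 2.82 percent of all kept loci. XLOC_017223 of chromosome 25, described above, was the highest by rank, with a log2 difference of 3.15. It has the same span as the more abundant XLOC_016526, so the pair can share reads. XLOC_031496 (chrX:6817317-6826028) was at 1.08 FPKM (50CSN) and 14.2 (50CSH), beside 5.79 (N), 6.92 (H) and 11.6 (75C). XLOC_002365 (chr10:36849621-36866295) was at 0.958 FPKM (50CSN) and 9.27 (50CSH), beside 3.02 (N), 4.79 (H) and 4.53 (75C). These loci had their lowest value in 50CSN and their highest in 50CSH. XLOC_019333 (chr29:51578270-51578597) was at 0.321 FPKM (50CSN) and 4.01 (50CSH), beside 5.595 (N), 0.392 (H) and 1.69 (75C). Lower in 50CSH was XLOC_012845 (chr2:21744771-21745241), at 2.29 FPKM against 13.0 FPKM (50CSN), 11.04 (N), 20.9 (H) and 32.7 (75C). XLOC_014266 (chr21:67961868-67968044) was likewise lowest in 50CSH, at 0.149 FPKM, beside 4.81 (N), 2.79 (H), 1.49 (75C) and 3.43 (50CSN). XLOC_015762 (chr23:36418980-36832709), with 4 transcripts, reached 3.86 FPKM (50CSN) and 1.49 (75C) and stayed under 1 in N, H and 50CSH.

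75C, with 75 percent Holstein ancestry, was also set beside H. On the same scale 55 unannotated loci were at least 2-fold higher in 75C and 51 lower, or 6.42 percent against 3.52 percent of all kept loci. XLOC_001895 (chr10:23247195-23247774) was at 18.2 FPKM (75C) and 3.10 (H), with 2.22 (N), 8.02 (50CSN) and 7.68 (50CSH). XLOC_023607 (chr5:109260141-109260454) was at 13.5 FPKM (75C) and 3.45 (H), with 1.45 (N), 9.84 (50CSN) and 4.003 (50CSH). XLOC_002349 (chr10:26444887-26445359) was lowest in H, at 0.594 FPKM, beside 7.14 (N), 6.37 (75C), 3.18 (50CSN) and 5.50 (50CSH). In the other direction XLOC_004381 (chr13:7735140-8000869) was at 4.24 FPKM (H), 1.29 (50CSN), and 0.230 (75C), 0.417 (N) and 0.435 (50CSH). XLOC_002285 (chr10:104477529-104485271) was at 4.596 FPKM in H against 0.334 in 75C, 1.44 in N and about 1 FPKM in both 50 percent crosses.

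Of the 10 pairs of libraries the largest numbers came from setting the 50 percent crosses against the purebreds. 50CSN had 61 loci higher and 124 lower than N, or 11.2 percent against 5.86 percent of all kept loci, and after quantile normalization 91 higher and 93 lower. 50CSH had 46 higher and 111 lower than N, or 9.51 percent against 5.72 percent, and after quantile normalization 75 higher and 79 lower. Against H, 50CSN had 67 higher and 118 lower (11.2 percent against 5.8 percent) and 50CSH 61 higher and 126 lower (11.3 percent against 5.9 percent). 75C had 78 higher and 68 lower than N (8.84 percent against 4.71 percent). 50CSN had 42 higher and 85 lower than 75C (7.69 percent against 3.58 percent), and after quantile normalization 52 higher and 68 lower. 50CSH had 30 higher and 89 lower than 75C (7.21 percent against 3.6 percent), and after quantile normalization 40 higher and 71 lower. The pairs share libraries and are not independent of each other. In each pair the share among the unannotated loci was above that among all kept loci, and below that among the 165 short unannotated loci, of which 23.03 to 35.8 percent were apart. Levels differed between the classes, so loci of like level were also set side by side. In annotated loci of the same level, from 1 to 2 FPKM, the share was 3.34 to 7.40 percent over the 10 pairs, against 4.80 to 10.4 percent of the unannotated loci. At 20 FPKM or more it was 1.04 to 3.25 percent against 3.17 to 11.9 percent of 126 unannotated loci.

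**Figure D3:**
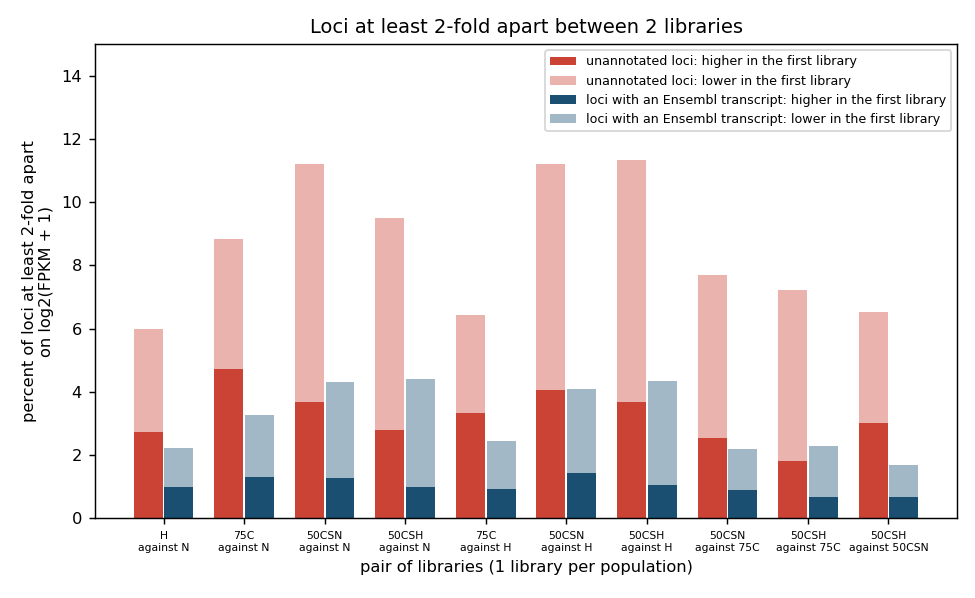
Percent of loci at least 2-fold apart on the log2(FPKM + 1) scale (vertical axis) for each of the 10 pairs of libraries (horizontal axis), with the share higher in the first library in full colour and the share lower in pale colour above it. The bars of the unannotated loci run from 5.996 to 11.3 percent and those of the annotated loci from 1.68 to 4.41 percent. No test was made, as a population has 1 library.

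The 3 crossbred libraries were also set against the 2 purebred ones, as in the deposited comparison of groups, with populations standing in for replicates. By limma over all 13871 kept loci, none of the 1651 passed a Benjamini-Hochberg adjusted p of 0.05, where 4 kept loci (0.0288 percent) did. At an unadjusted p of 0.05 limma gave 251 of them, 101 higher and 150 lower in the crossbreds, or 15.2 percent against 21.7 percent of all kept loci. After quantile normalization 140 were higher and 115 lower at that threshold. The share at that threshold went with level, and the unannotated loci were the weaker ones. From 1 to 2 FPKM it was 10.3 percent of the unannotated and 10.5 percent of the annotated loci. From 5 to 20 FPKM it was 18.8 and 19.8 percent, and at 20 FPKM or more 25.4 and 31.7 percent. The loci with all crossbred values above both purebreds numbered 257, or 15.6 percent against 21 percent of all kept loci, and those below numbered 318, or 19.3 percent against 22.3 percent. The median difference over the 1651 was -0.04 on the log2 scale, beside -0.01 over all kept loci, and 0.04 after quantile normalization, so no direction is drawn for the set. With 3 against 2 libraries the smallest exact permutation p is 0.1, and the p-values here measure only the spread among these 5 libraries.

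Nearest to the threshold was XLOC_014527 (chr22:52574597-52579635), 7945 nt from the nearest annotated locus. It was at 38.5 FPKM in N and 42.3 in H, against crossbred values of 17.7 (75C), 17.3 (50CSN) and 15.4 (50CSH). The groups did not overlap, with a log2 difference of -1.22 and a standard error of 0.10 (limma adjusted p = 0.078, and adjusted p = 0.047 with robust fitting). Among loci above 0 in all libraries the lowest in the crossbreds by rank was XLOC_010831 (chr19:58468571-58471996), at 2.80 FPKM in N and 10.8 in H against crossbred values of 2.29 (75C), 0.508 (50CSN) and 0.363 (50CSH) (limma adjusted p = 0.18). Neighbours on chromosome 19 were low together in the crossbreds. XLOC_011604 (chr19:19143632-19145023) was at 10.3 FPKM (N) and 19.2 (H) against crossbred values of 4.22 (75C), 3.60 (50CSN) and 2.53 (50CSH), and XLOC_011605 (chr19:19150944-19151697) was at 2.45 (N) and 3.02 (H) against under 0.6 FPKM in every cross (limma adjusted p = 0.11 for both). Next to them XLOC_011603 (chr19:19142243-19142584), outside the ranking because of its zeros, had 3.61 FPKM (N), 4.66 (H) and 0.589 (50CSN) and was listed at 0 in 75C and 50CSH. XLOC_021425 (chr4:116615192-116616716) was at 18.7 FPKM in N and 14.1 in H against crossbred values of 8.64 (75C), 3.71 (50CSN) and 5.004 (50CSH) (limma adjusted p = 0.13).

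Among loci above 0 in every library the highest in the crossbreds by rank was XLOC_001895 of chromosome 10, given above, with a log2 difference of 1.66 and a standard error of 0.38 (limma adjusted p = 0.13). XLOC_011657 (chr19:40691011-40691438) was at 1.96 FPKM in N and 1.87 in H against crossbred values of 3.52 (75C), 10.6 (50CSN) and 8.03 (50CSH) (limma adjusted p = 0.15). XLOC_019326 (chr29:49237109-49237491) was at 0.240 FPKM in N and 0.286 in H against crossbred values of 1.54 (75C), 1.43 (50CSN) and 4.06 (50CSH) (limma adjusted p = 0.15). XLOC_015907 (chr23:30083310-30083680) was at 1.28 FPKM in N and 1.52 in H against crossbred values of 2.62 (75C), 7.06 (50CSN) and 3.73 (50CSH) (limma adjusted p = 0.17). XLOC_023459 (chr5:26171586-26451968), listed at 0 in H, had 2.49 FPKM (N) and 12.9 (75C), 4.47 (50CSN) and 6.33 (50CSH). None of these passed the test.

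The side on which the crossbreds fell went with the level of a locus. Of the 709 unannotated loci with a mean of 1 to 2 FPKM, 78 had all crossbred values above both purebreds and 149 had all below, but after quantile normalization these counts were 109 and 108. Of the 126 loci at 20 FPKM or more, 39 were above and 17 below, and 36 and 14 after quantile normalization. Annotated loci ran in the same order, from 9.93 percent above and 25.1 percent below at 1 to 2 FPKM to 29.0 percent above and 23.8 percent below at 20 FPKM or more. A further grouping, made after the values were seen, took the 18 loci with a single transcript, a span of their own under 1000 nt and a mean of at least 100 FPKM. In 10 of them the crossbreds lay above both purebreds and in 1 below, with a median log2 difference of 0.31 as deposited and 0.26 after quantile normalization. Over all kept loci 21 percent lay above and 22.3 percent below, and over annotated loci at 20 FPKM or more 29.0 and 23.8 percent. That limit is lower than the 100 FPKM of the 18 loci, and the share of annotated loci at 100 FPKM or more was not taken. XLOC_025960 (chr7:75523071-75523490) was one of these, at 174 FPKM in N and 169.9 in H against crossbred values of 235 (75C), 362 (50CSN) and 285 (50CSH).

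**Figure D4:**
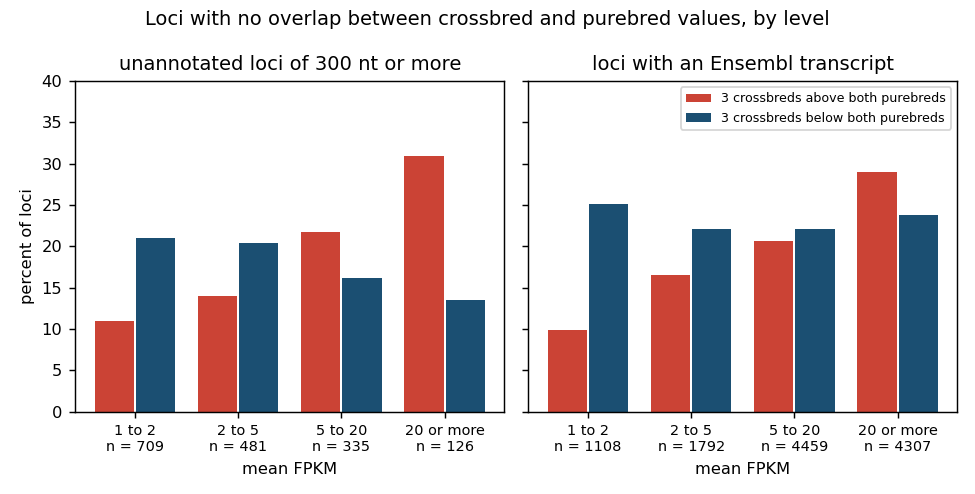
Percent of loci (vertical axis) whose 3 crossbred values all lie above or all lie below both purebred values, by mean FPKM (horizontal axis), for the unannotated loci (left) and the annotated loci (right). Among the unannotated loci the share above rises from 11.001 to 30.95 percent with level, and at 1 to 2 FPKM the gap between above and below is not present after quantile normalization (109 and 108 loci).

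Loci that shared a span with an annotated locus were lower in the crossbreds more often than higher. Of those 322, 34 had all crossbred values above both purebreds and 85 had all below, with a median log2 difference of -0.15. These are 10.6 percent above and 26.4 percent below, beside 21 and 22.3 percent of all kept loci. The share below is thus near that of all kept loci and the share above is the lower one. Weak annotated loci, with a mean of 1 to 2 FPKM, had nearly the same split, at 9.93 percent above and 25.1 percent below. After quantile normalization the counts were 47 and 66 and the median was -0.07. At 5 FPKM or more the order turned, with 11 above and 8 below among 53 loci. The 1164 loci with a span of their own had 204 above and 198 below and a median of 0.01. The shared-span loci were also the weaker ones, with a median level of 1.74 FPKM against 2.68 FPKM, and the part of level in this difference was not tested. XLOC_000232, with the widest span of all (chr1:80170818-80968451), was at 8.57 FPKM (N), 7.70 (H) and 7.55 (75C) and at 3.12 (50CSN) and 3.99 (50CSH). XLOC_017807 (chr26:22874432-23465241), which shared its span with 11 annotated loci, was at 4.24 FPKM in N and 3.66 in H against crossbred values of 3.02 (75C), 2.16 (50CSN) and 2.87 (50CSH). Between these in width, XLOC_015926 and XLOC_015927 shared the span chr23:37234003-37851269 with an annotated locus and overlapped between the groups, with crossbred minus purebred log2 differences of 0.08 and 0.20.

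The loci were also set beside their nearest kept annotated neighbour. Across the 337 pairs that lay 1 to 1000 nt apart, Pearson's r between the crossbred minus purebred differences of locus and neighbour was 0.25, and across the 386 pairs more than 50000 nt apart it was 0.09. The pairs are measured in the same 5 libraries and are not replicates, and these correlations are weak. For 50CSH minus 50CSN the values did not fall with distance, with r = -0.09 at 1 to 1000 nt, 0.24 over the 440 pairs of the class next below 50000 nt and 0.04 beyond 50000 nt. For H minus N they were 0.22, 0.16 and 0.08 in the same classes. In the class next above 1000 nt, with 168 pairs, r for H minus N was 0.09. The values for H minus N therefore did not fall steadily with distance. At every distance the neighbour was the higher of the pair in most cases. At 1 to 1000 nt the medians were 18.2 FPKM for the neighbours and 2.02 FPKM for the unannotated loci. There 46 of the 337 unannotated loci exceeded their neighbour, and beyond 50000 nt 94 of the 386 did.

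A stretch of chromosome 10 between 20 and 26 Mb held 24 of the unannotated loci among 118 kept loci, 20 of the 24 between 23 and 25 Mb. The genes of the T cell receptor alpha and delta chains lie on chromosome 10 of cattle, and whether these loci are segments of them is not stated in the files. Most were compact, 15 with a span under 1000 nt and 20 with a single transcript, and their means lay between 1.06 and 9.04 FPKM. The stretch was singled out with its values in view, so no test is given of what sets it apart. The median standard deviation over the 5 libraries was 0.57 on the log2(FPKM + 1) scale for the 24, against 0.28 over all 1651 and 0.34 over those with a mean of 2 to 5 FPKM. The crossbreds lay above both purebreds in 9 of the 24 and below in 2, and in 11 and 2 after quantile normalization, beside 21 percent above and 22.3 percent below over all kept loci. Their median log2 difference was 0.46. By limma 6 of the 24 had an unadjusted p of at most 0.05, 5 of them higher in the crossbreds, and none passed the adjusted threshold. Over all kept loci 21.7 percent had such a p, so this count is near the background. N was the lowest library at 12 of the 24, beside 20.9 percent of all kept loci. 50CSN was the highest at 10, beside 17.8 percent of all kept loci.

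Different loci of this stretch were high in different libraries. XLOC_001365 (chr10:24480880-24481969) was at 17.6 FPKM (H), 1.03 (N), 1.77 (75C) and 1.01 (50CSN), with a listed 0 for 50CSH. Its neighbour XLOC_001366 (chr10:24492881-24493444) was lowest in the same cross, at 0.520 FPKM (50CSH) and 0.738 (H), and stood at 4.72 (N), 3.003 (75C) and 7.09 (50CSN). XLOC_001900 (chr10:23461907-23462434) was at 0.687 FPKM (H) and 12.1 (50CSN), with 5.17 (N), 4.64 (75C) and 5.84 (50CSH). XLOC_002342 (chr10:24211088-24211400) and XLOC_002344 (chr10:24654018-24654322) kept one order, lowest in N and highest in 50CSN. The first had 4.02 FPKM (N), 5.65 (H), 10.3 (75C), 15.9 (50CSN) and 9.27 (50CSH), and the second 2.72 (N), 4.15 (H), 7.48 (75C), 13.9 (50CSN) and 5.55 (50CSH). Of the 24, 2 had 2-fold or higher values in 50CSH relative to 50CSN on the log2(FPKM + 1) scale, and 5 the reverse. XLOC_001365 is among the 5 only through its listed 0 in 50CSH. Over all kept loci 2.82 percent were that far apart, and over the 1651 unannotated loci 6.54 percent.

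**Figure D5:**
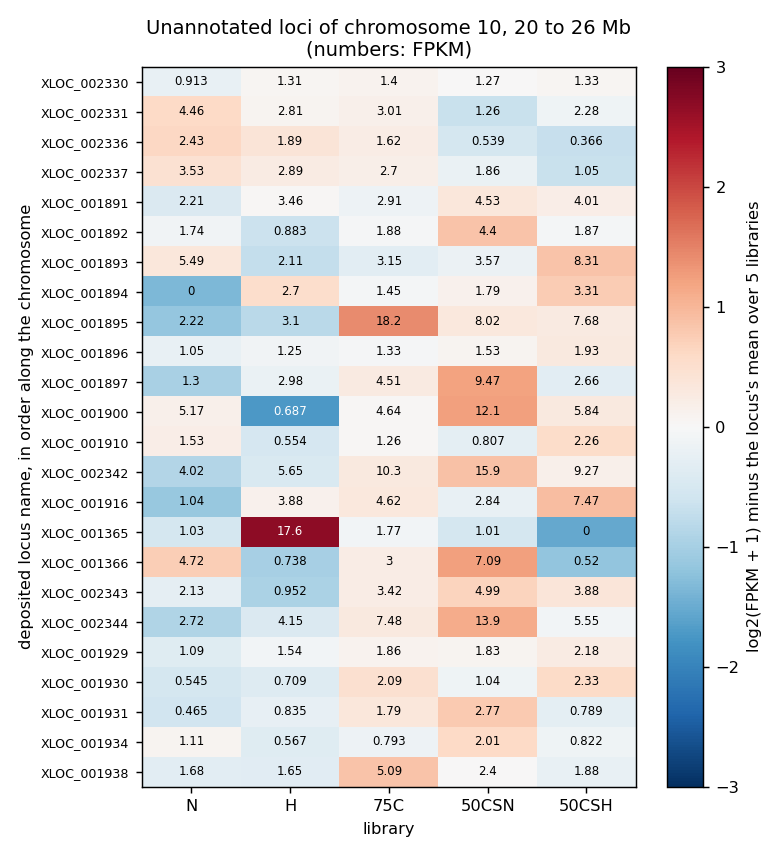
FPKM (numbers) of the 24 unannotated loci of chromosome 10 between 20 and 26 Mb, in order along the chromosome (rows), in the 5 libraries (columns), coloured by the log2(FPKM + 1) difference from the mean of the locus. XLOC_001365 stands out in H at 17.6 FPKM and XLOC_001895 in 75C at 18.2 FPKM.

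The largest run of unannotated loci, counted as loci with spans less than 50000 nt apart, lay on chromosome 5 from 80052616 to 80144862. It held 9 of them among 10 kept loci and no annotated one shared their spans. XLOC_023165 led it, with 62.5 FPKM (N), 86.3 (H), 65.1 (75C), 81.8 (50CSN) and 67.3 (50CSH), while the other 8 had means of 1.05 to 4.22 FPKM. XLOC_023546 (chr5:80144024-80144862), at its end, reached 6.56 FPKM in 75C and 1.32 in H and was listed at 0 in N, 50CSN and 50CSH. In 4 of the 9 the level was at least 2-fold lower in 50CSH than in 75C on the log2(FPKM + 1) scale. This was the case for 2.54 percent of all kept loci and 5.39 percent of the 1651. Among the 4 are XLOC_023546, through its listed 0 in 50CSH, and XLOC_023541, which only just passed at 1.62 FPKM (75C) and 0.293 (50CSH). Of the pairs counted for this run, this one had the most such loci. The 9 have 6 distinct spans and some can share reads. A run of 8 on chromosome 14 from 11876182 to 12068915 was weak throughout, with a median of 2.10 FPKM (N), 1.76 (H), 1.34 (75C), 1.21 (50CSN) and 1.40 (50CSH), and 5 of the 8 had all crossbred values below both purebreds, as did 22.3 percent of all kept loci. Of these 8, 5 share 1 span and can share reads, and the run was chosen for its size.

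The authors' deposited tables call transcripts at a q-value of their own test. In the pairwise table of the authors 41 calls fell on 19 of the unannotated loci, and 22 of these calls have a value of 0 in 1 of the 2 libraries. XLOC_025392 of chromosome 7 drew 5 of them. The authors' deposited pairwise comparisons called 3 to 6 transcripts of these loci per pair. Between H and N they called 3 of 2146 tested, against 0.0796 percent of all tested transcripts, and between 50CSH and 50CSN 3 of 2109, against 0.0477 percent. For 75C, 6 were called against N (background 0.183 percent) and 3 against H (0.0758 percent). For 50CSN, the authors' deposited calls were 4 against N (0.144 percent), 6 against H (0.157 percent) and 3 against 75C (0.0849 percent). For 50CSH they were 4 against N (0.151 percent), 6 against H (0.176 percent) and 3 against 75C (0.0574 percent). These are few calls, and no difference from the background is drawn from them. In the authors' deposited table of pooled groups 29 transcripts of 29 loci were called, 8 higher and 21 lower in the crossbreds, or 1.35 percent of 2142 tested against 0.936 percent of all tested transcripts. Of these 29 loci, 28 had no overlap between the crossbred and purebred values and 27 had an unadjusted p of at most 0.05 by limma, but they were called for that difference. The called loci of the authors' deposited pooled comparison include XLOC_014527, XLOC_008716, XLOC_010128, XLOC_003304, XLOC_012180 and XLOC_025960. Lower in the crossbreds among the called loci of that deposited table were XLOC_006023 (chr14:38625425-38626838), with 307 FPKM (N) and 386 (H) against crossbred values of 213 (75C), 262 (50CSN) and 199.99 (50CSH), and XLOC_013397 (chr20:59356752-59410554), with 127 (N) and 171 (H) against crossbred values of 105.3 (75C), 88.0 (50CSN) and 74.8 (50CSH).

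Several loci were even over the populations. Among those with a mean of at least 10 FPKM, XLOC_003533 (chr11:107519882-107523963) had the smallest spread, with values of 18.9 FPKM (N), 19.8 (H), 19.1 (75C), 20.2 (50CSN) and 19.3 (50CSH). Its 3 transcripts were divided differently all the same. The transcript TCONS_00008832 was at 16.1 FPKM (N), 19.8 (H) and 19.1 (75C) but at 2.70 (50CSN) and 7.33 (50CSH), where TCONS_00008830 was at 15.8 and 11.9 FPKM. XLOC_024386 (chr6:12173041-12174577) had 54.6 FPKM (N), 54.3 (H), 57.7 (75C), 56.2 (50CSN) and 59.5 (50CSH). Over the 400 loci with several transcripts, the leading one held a median of 61.8 percent of the level, and in 203 the same transcript led in all 5 libraries.

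Listed zeros touched 50 of the 1651 loci, or 3.03 percent, 39 of them in 1 library, 8 in 2 and 3 in 3. Over all kept loci 1.62 percent had a listed 0, over annotated loci 1.08 percent and over the short unannotated loci 14.5 percent. The zeros of the 1651 loci fell on 8 loci (N), 12 (H), 16 (75C), 14 (50CSN) and 14 (50CSH). Of the 50, 48 had a single transcript, beside 75.8 percent of the 1651. XLOC_025849 (chr7:14291776-14292568) was at 4.19 FPKM in N and 1.70 in H and listed at 0 in all 3 crosses. XLOC_026873 (chr8:30171871-30172244) was listed at 0 in both purebreds and was at 1.29 FPKM in 75C, 0.745 in 50CSN and 3.11 in 50CSH. No test is given for these, since 1 group consists of listed zeros. XLOC_013947 (chr21:19958269-19958575) was at 10.5 FPKM (N), 10.2 (50CSN) and 1.30 (50CSH) and listed at 0 in H and 75C.

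Each cross was last placed against the range of the purebreds. In 75C 474 of the loci, or 28.7 percent, lay between N and H, against 26.4 percent of all kept loci, with 619 above both and 558 below. Over all kept loci 39.8 percent were above and 33.8 percent below in 75C. In 50CSN 400 lay between, 536 above and 715 below (24.2, 32.5 and 43.3 percent, beside 20.4, 35.97 and 43.6 percent of all kept loci). In 50CSH 421 lay between, 548 above and 682 below (25.5, 33.2 and 41.3 percent, beside 21.4, 37.5 and 41.1 percent). With 1 library per population, no error can be attached to these counts.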

How the data were processed

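RNA of peripheral blood leukocytes was selected for poly(A) tails and sequenced from both ends, per the labels' protocols, which name no step that marks the strand. TopHat2 2.0.9 and Cufflinks 2.2.1.0 are named in the submitters' processing notes. The genome build and annotation are also not given in the sources used here. As deposited by the authors, each transcript has an FPKM value for every library and for the pooled groups, beside p-values and q-values from their own test, per the file headers. The direction of their pooled calls is that of the deposited log2 fold change. The values of a library were summed over the transcripts of a locus. Deposited starts appear to count from 0, since for 43.6 percent of 4126 short annotated loci with 1 transcript the end minus the start is a multiple of 3, as in coding sequences, and 1 was added to each start. Depth is known only relative to H.

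Kept loci (mean of 1 FPKM or more) entered as log2(FPKM + 1), which makes changes of low loci look smaller, in limma 3.58.1 in R 4.3.3 (mean-variance trend, Benjamini-Hochberg adjustment over 13871 loci) for crossbreds against purebreds, and by counts of loci at least 2-fold apart for pairs. On simulated data limma found 58 percent of 200 loci altered by 2-fold and 87 percent of 200 altered by 4-fold, all with a mean log2(FPKM + 1) above 2. It also gave 8 and 9 false calls. The median of the unannotated loci, 2.47 FPKM, lies under that level, so the simulation does not cover most of them. Its values were drawn independently with the spread of each locus in these 5 libraries. Sums, counts and distances came from Python 3.11.15 with pandas 2.3.3. Named loci were the highest by mean, the extremes of each comparison above 0 in every library, the widest spans, the most even, those listed at 0 with the highest mean, the authors' calls and the largest runs, and a part of each is given. The groups by level, place and compactness and the stretch of chromosome 10 were formed with the values in view. The loci and lists were chosen with earlier results of these data known. Alternatives were a pseudocount of 0.1, other filters, scalings, limma settings, left-out libraries and definitions of the loci.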

Additional observations from a re-analysis of the deposited data

How the results depend on the processing

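No paired analysis was possible because each population has 1 library, and replicate numbers only name the samples. With a pseudocount of 0.1 in place of 1, the percent of unannotated loci at least 2-fold apart was 14.4 for H against N, 16.8, 22.1 and 21.02 for 75C, 50CSN and 50CSH against N, 13.4, 21.4 and 20.96 for the same libraries against H, 17.02 and 15.3 for 50CSN and 50CSH against 75C, and 15.7 for 50CSH against 50CSN, while all kept loci ranged from 5.50 to 10.1. Without the filter on low values it was 4.97 and 6.97 for 75C and 50CSN against N, 3.13, 5.497 and 5.59 for 75C, 50CSN and 50CSH against H, 3.83 and 3.4965 for 50CSN and 50CSH against 75C, and 4.08 for 50CSH against 50CSN, and 9.29 percent had all crossbreds above both purebreds. A mean of at least 5 FPKM left 461 loci, 24.3 percent of them with all crossbreds above. In every one of these settings, and under both other scalings, the share was above that of all kept loci in 10 of 10 pairs. Leaving out 1 library each in turn, the share with all crossbreds above ran from 20.8 to 28.2 percent and that below from 23.6 to 32.5 percent, as fewer libraries have to separate. By limma 1 locus passed with robust fitting and 1 at an adjusted p of 0.1, in both cases XLOC_014527, and 0 under the other settings run. With spans of at least 1000 nt the loci took 2.61 (N), 3.16 (H), 2.99 (75C), 3.99 (50CSN) and 1.53 (50CSH) percent of all FPKM, and with spans overlapping no other locus, which leaves out XLOC_009963, 2.45, 2.53, 2.51, 2.57 and 2.68 percent. The median distance to an annotated locus was 23663 nt between centres. For 136 differences of named loci, 1432 values under alternatives were labelled. Of these, 1412 were labelled the same, 19 moved with the pseudocount of 0.1, 1 was labelled stronger and 0 reversed. The crossbred minus purebred differences were labelled only by whether their limma adjusted p crossed the threshold. Since hardly any locus passed it, these labels cannot show whether direction or size was kept for them.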
